A study of Sus scrofa with 2 samples.

Results

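Of the chromatin loops listed for pig spleen, 680 joined anchors that both lay outside every listed topologically associating domain. They were chosen by position: loops of chromosomes 1 to 18 with anchor starts under 400 kb apart, neither anchor midpoint inside a listed domain, and no domain whose start and end, each widened by 20 kb on either side, were met by the left and the right anchor. They made up 24.1% of the 2817 autosomal loops under 400 kb and 19.9% of all 3410 listed loops. The other 2137 loops under 400 kb comprised 1191 with both anchors inside the same domain, 770 joining both edges of a domain (corner loops) and 176 that left or crossed a domain.

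The contacts came from Hi-C of whole spleen of pig (Sus scrofa), with 2 biological replicates in a single group and no other tissue, treatment or genotype. The sources used here do not give the strain, age or sex of the animals. Nuclei were fixed with formaldehyde, their chromatin was cut with DpnII and ligated after biotin fill-in, and each ligated pair that is sequenced counts as a contact between 2 loci. The deposited lists of domains and loops carry no value per replicate, so errors below describe the spread between chromosomes and not between animals.

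A domain is a stretch of chromosome whose loci contact each other more than they contact the flanks, and a loop is a pair of loci that meet more often than the pairs around them. In mammals many loops form when cohesin extrudes chromatin until it is stopped by CTCF, and a loop at a domain's corner marks both of its borders. Other loops join promoters with enhancers or with other promoters. A loop outside the listed domains is thus a focal contact where the domain caller drew no domain. Spleen is a mixture of B cells, T cells, macrophages, erythroid cells and stroma, and the contacts are a mean over all of them.

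The loops outside domains were thinly spread over a large territory. The 1908 autosomal domains covered 659.9 Mb of 2265.3 Mb, leaving 70.9% of the autosomes outside them. There were 0.424 such loops per Mb outside domains, against 2.97 loops per Mb inside domains, with loops within a domain and corner loops counted. The loops outside domains made up 24.9 ± 8.47% of the loops under 400 kb of an autosome (SD, n = 18 chromosomes). The share was highest on chromosome 11, with 21 of 43 loops (48.8%), and lowest on chromosome 18, with 10 of 76 (13.2%). These densities follow from the positions by which the loops were chosen and were not tested.

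Most of these loops sat in long gaps between domains and did not span a domain. No listed domain lay between the anchors of 667 loops, and 13 enclosed a domain. Of 1774 gaps between consecutive domains 353 held at least 1 such loop, and these gaps had a median length of 1080 kb, against 360 kb for all gaps. Gaps under 0.2 Mb held a loop in 7 of 660 cases, gaps of 0.2 to 0.5 Mb in 65 of 370, and gaps of 5 Mb or more in 28 of 48. A short gap has little room for a loop of at least 100 kb, the shortest span listed. Counted per Mb of gap, the loops were densest in gaps of 0.2 to 0.5 Mb (0.701) and 0.5 to 1 Mb (0.661), and sparse in gaps of 5 Mb or more (0.214). A further 12 loops lay beyond the first or last domain of a chromosome.

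**Figure D1:**
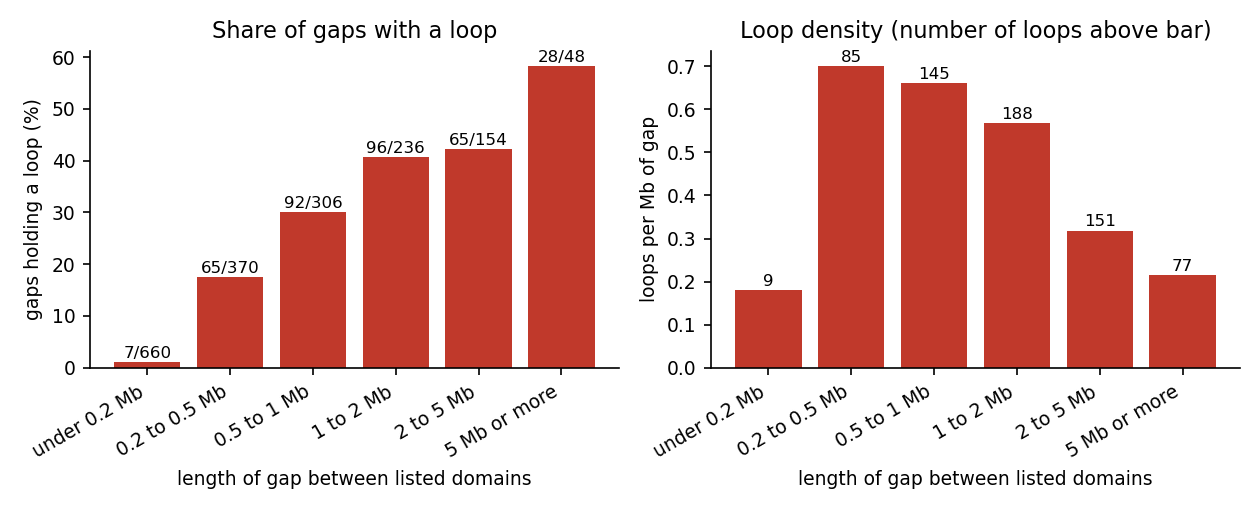
Gaps between consecutive listed domains on chromosomes 1 to 18, by length; the left bars give the percent of gaps that hold a loop (numbers of gaps above the bars) and the right bars the loops per Mb of gap (numbers of loops above the bars). Longer gaps hold a loop more often, up to 28 of 48 at 5 Mb or more, while the loops per Mb are highest at 0.701 in gaps of 0.2 to 0.5 Mb.

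The anchor nearer to a domain was a median of 162.5 kb away from it, with quartiles of 47.5 and 443.8 kb. In 172 loops it lay within 50 kb of a domain and in 62 over 1 Mb away. The farthest pair, on chromosome 11, ran from bins at 33525001 and 33550001 to a common bin at 33725001 and lay 7597.5 and 7622.5 kb from any domain, with 56 and 49 contacts. The next, on chromosome 2 from 34100001 to 34225000, lay 4612.5 kb away and had 69 contacts. None of these 3 loops had a protein-coding gene end in an anchor. At the other extreme, 18 loops tied as nearest to a domain, with an anchor midpoint 2.5 kb from it and 55 to 125 contacts, among them a loop of 250 kb on chromosome 8 between both ends of RNF150, a membrane protein with a RING finger.

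Some members were close to the limits of the rule. The 80 loops with an anchor midpoint within 20 kb outside a domain had a median of 82 contacts and a ratio to expected of 2.03, while the 46 crossing loops with no midpoint over 20 kb inside a domain had 90 contacts and a ratio of 2.19. At the span limit, the 19 loops outside domains with a span of 375 kb had a median of 64 contacts and a ratio of 2.27, and the 24 with 400 kb, just beyond the limit, had 67.5 contacts and a ratio of 2.34. In all, 248 autosomal loops outside domains spanned 400 kb or more and are not described here.

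The spans ran from 100 to 375 kb with a median of 150 kb, against 175 kb for the other loops. The shortest step, 100 kb, held 32.1% of the loops outside domains, against 23.4% of the other loops. Spans were used to choose the loops and are given as a description only.

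Loops outside domains had fewer contacts than other loops of equal span, but also fewer expected contacts. Their median was 93 observed contacts, with quartiles of 75 and 117 and a range from 10 to 270, against a median of 117 contacts for the other loops. A count of 93 has an exact Poisson 95% interval of 75.1 to 113.9, which covers counting error only. The expected contacts, estimated by the loop caller from a donut of pixels around the loop, had a median of 46.5 for loops outside domains, against 60.9 for the other loops. The ratio of observed to expected contacts had a median of 1.99 outside domains, against 1.93 for the other loops.

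The contrast in contacts was present at every span. Loops outside domains of 100 kb had a median of 119.5 contacts, against 142 inside domains and 159 at corners. At 200 kb they had 79.5 contacts, against 111 in each of those classes. At all 12 spans the median of observed contacts and that of expected contacts were lower outside domains than in the other loops, and at 11 of 12 spans the median ratio was higher. Averaged at the spans of the loops outside domains, the ratio was 2.01 for them, against 1.85 inside domains, 1.87 for crossing loops and 2.06 for corner loops. On all 18 autosomes the median of observed contacts was lower outside domains than in the other loops, and on 15 of 18 the median ratio was higher. Per autosome the median was 92.4 ± 12.1 contacts outside domains, against 118.6 ± 9.27 for the other loops (SD, n = 18 chromosomes). Domains and loops were both listed from the same Hi-C contacts, so these values describe the classes and no test was made.

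**Figure D2:**
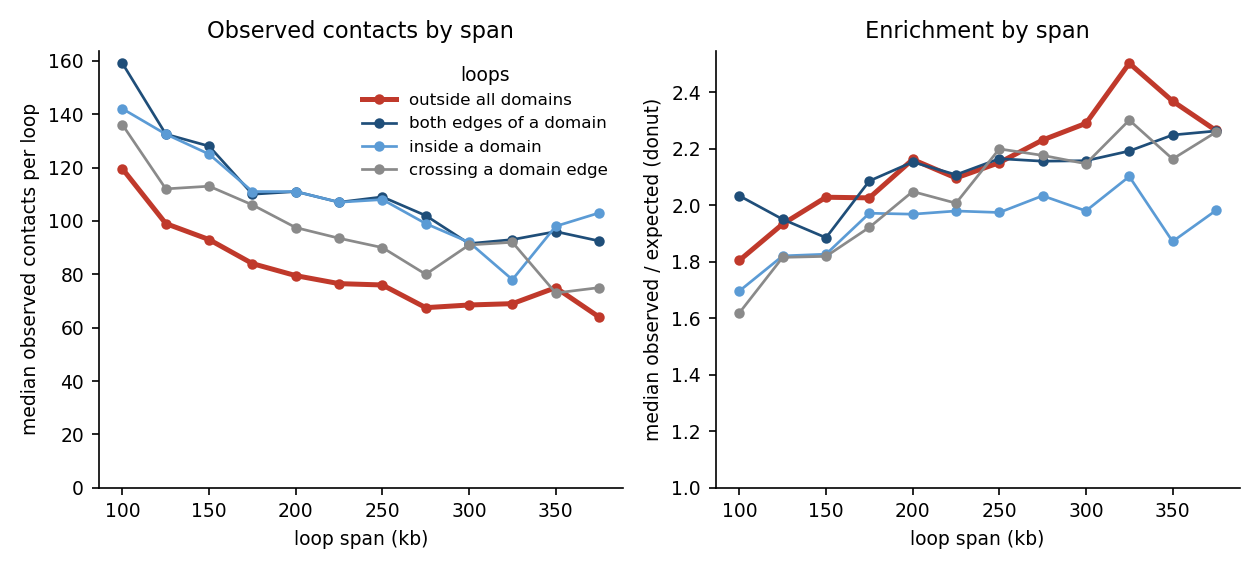
Median observed contacts (left) and median ratio of observed to expected contacts (right) at each loop span in kb, for loops outside all domains (red) and the 3 other classes of autosomal loops under 400 kb (both edges of a domain, inside a domain, crossing a domain edge). Loops outside domains have the lowest contacts at 11 of 12 spans, with a ratio above that of loops inside domains at all 12.

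The authors' deposited table gives a q-value for each of 4 neighbourhoods of the pixel, called FDR here, and a loop is given the largest of its 4. In the authors' deposited table the median FDR was 0.0185 outside domains, against 0.0109 for the other loops, and 295 of the 680 (43.4%) were under 0.01, against 49.5% of the others. In 182 of the 680 the authors' deposited FDR was over 0.05. Loops named in this text are among these, such as those at RNF150 (0.0603) and CHD1L (0.0810). An FDR is printed for only a part of the named loops. The largest q-value in the authors' deposited table was the vertical one in 329 loops and the horizontal one in 319, with the lower-left one in 22 and the donut in 10. These loops were more often single pixels in the list: 33.2% touched another listed pixel, against 60.8% of the other loops. They fell into 559 groups of touching pixels.

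Apart from the bulk of loops with ratios near 2, a small set stood far above its surroundings. The ratio was over 5 in 38 loops outside domains (5.59%), against 5 of the other loops (0.234%). Their observed contacts were not high, with a median of 39.5 and a range from 10 to 137. Their expected contacts were low, with a median of 4.76, against 46.5 for all loops outside domains. The threshold of 5 was chosen after the values were seen. The 38 lay on 11 chromosomes in 29 groups of touching pixels, and 18 had no protein-coding gene end in either anchor. The loops with an end of a gene with a named symbol were 2, at PMP22 and at CHD1L, and the rest of the genes there had placeholder names. What lowers the expected contacts at these places was not tested. Without the 38, the median ratio of the loops outside domains was 1.97, against 1.93 for the other loops without theirs.

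**Figure D3:**
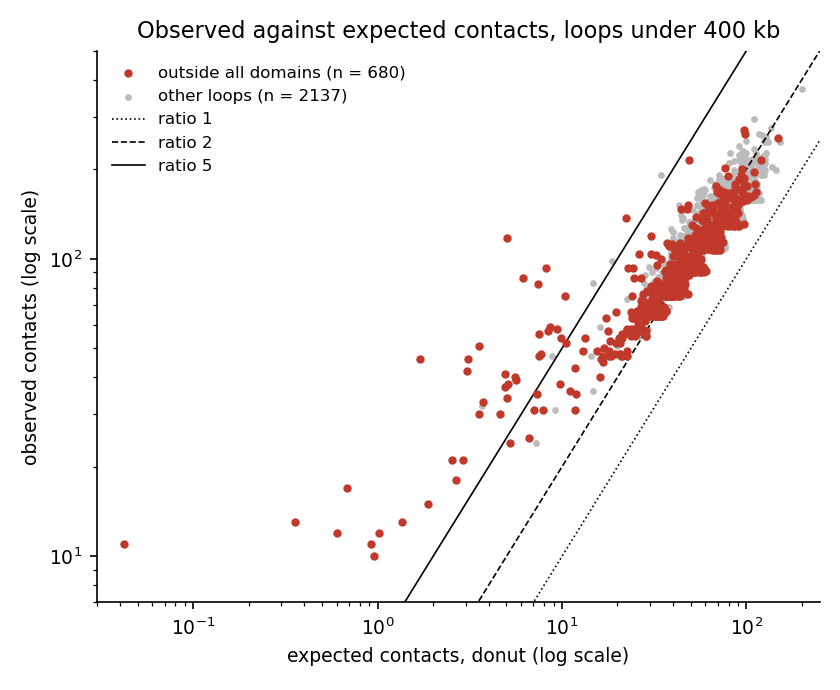
Observed contacts against expected contacts from the donut, both on log scales, for the 680 loops outside all domains (red) and the 2137 other autosomal loops under 400 kb (grey), with lines at ratios of 1, 2 and 5. Most loops outside domains lie along the lower left of the main band, and 38 lie above the line of ratio 5 at expected contacts of 0.0422 to 22.3.

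Of the 8 loops outside domains with the lowest FDR in the authors' deposited table, 6 came from this set. A loop of 100 kb on chromosome 12, from 25275001 to 25400000, had an FDR of 0 in the authors' deposited table, with 137 contacts where 22.3 were expected. A second one there, of 300 kb from 49050001 to 49375000, had 86 contacts where 6.15 were expected. The loop of 125 kb on chromosome 16 from 37775001 to 37925000 had 82 contacts against 7.39. None of these 3 had a named gene at an anchor. The highest ratio, 260.8, was that of a loop of 125 kb on chromosome 12 with an end of PMP22, a peripheral myelin protein, and it rested on 11 contacts against 0.0422 expected. With so small a denominator the ratio has little precision. The 2 loops of 125 and 150 kb on chromosome 6 near 29100001 had 13 and 17 contacts and ratios of 36.2 and 25.02.

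The loops outside domains with most contacts were of another kind, short and mostly at genes. The first, of 150 kb on chromosome 10 from 19275001 to 19450000, had 270 contacts where 97.4 were expected. The second, of 100 kb on chromosome 7 from 23525001 to 23650000, had 263 where 98.7 were expected. Its left anchor held ends of CCHCR1 and PSORS1C2 and its right anchor ends of SLA-6, SLA-7 and SLA-8, class I genes of the swine major histocompatibility complex. Class I genes are close copies of each other, so reads there may be placed with less certainty. The third, of 100 kb on chromosome 6 from 56450001 to 56575000, had 255 contacts against 147.9 expected. Its anchors held ends of DPRX and of genes with placeholder names. The fourth, also of 100 kb on chromosome 6, had 215 contacts against 120.7 expected. It ran from an anchor with ends of AP2S1 and ARHGAP35, a GTPase-activating protein, into the body of ARHGAP35.

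Some of the loops shared anchors. They had 1190 distinct anchors, of which 147 served 2 or more of them and 17 served 3 or more. An anchor was shared with another loop outside domains in 264 of the 680, and with a listed loop of another kind in 70. In 217 of the 680 the pixel touched that of another loop outside domains, and pixels side by side share an anchor. Sharing was not counted for the other loops. Just 19 anchors were the right end of a loop outside domains and the left end of the next. Of the gaps, that on chromosome 7 from 20310001 to 22590000 held the most loops, 11 in 2280 kb, followed by 9 in a gap of 1430 kb on chromosome 12.

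The anchor with most loops, on chromosome 8 from 54650001 to 54675000, had 6. All 6 ran to its left, with spans of 100, 125, 150, 200, 275 and 375 kb and 117, 57, 59, 37, 33 and 21 contacts. Their ratios lay between 6.83 and 23.2, so this hub belonged to the set of high ratios. The loops of 100, 125 and 150 kb were adjoining pixels. No named gene had an end in any anchor of this hub.

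The next hubs had 4 loops each and ordinary ratios, but many of these loops were adjoining pixels. A count of loops at such an anchor is thus not a count of separate contacts. On chromosome 14, the anchor from 16600001 to 16625000, with an end of SCRG1, had loops of 100, 125, 325 and 350 kb with 108, 95, 69 and 67 contacts. Their partners held ends of HMGB2, a chromatin protein that bends DNA, of GALNT7 and of GALNTL6, both of the family that starts mucin-type sugar chains. The loop of 350 kb ended at a second hub from 16950001 to 16975000, which received 3 more loops of 175, 200 and 225 kb with 91, 94 and 109 contacts. At both hubs on chromosome 14, loops whose spans differ by 25 kb were adjoining pixels. All 7 loops lay in a gap of 4120 kb. On chromosome 9, the anchor from 64200001 to 64225000 had 4 loops, to the left with 112 and 115 contacts and to the right with 110 and 130. It held ends of PRELP and OPTC, and FMOD lay at the end of one of the leftward loops. All 3 encode small leucine-rich proteins of the extracellular matrix. The leftward loops of this anchor adjoined each other, as did the rightward ones.

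**Figure D4:**
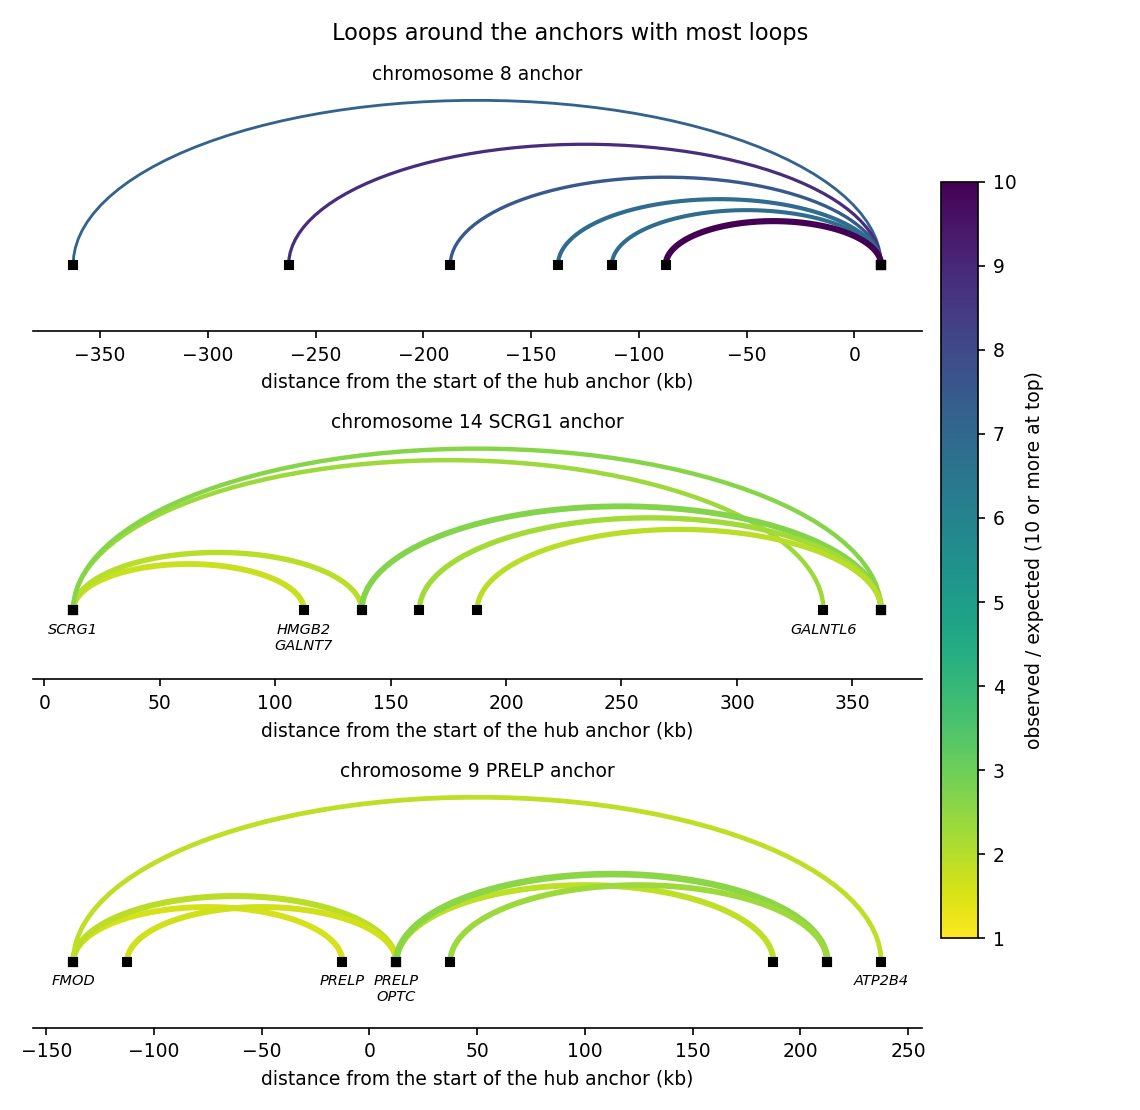
Loops outside domains around the anchors with most of them, drawn as arcs against distance in kb from the start of the hub anchor; line width grows with observed contacts, colour gives the ratio of observed to expected contacts, squares are anchor midpoints and names are genes with an end in an anchor. The 6 loops on chromosome 8 all run to one side with ratios of 6.83 or more, while those at SCRG1 and PRELP form nested sets with ratios of 1.56 to 2.67. Many of the arcs are adjoining pixels.

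Protein-coding genes met these loops at many places. A gene was counted at a loop when either of its annotated ends lay in an anchor of 25 kb. Of 18722 autosomal protein-coding genes, 919 (4.91%) were at a loop outside domains, and 2146 (11.5%) were at another loop under 400 kb. Of the 919 genes, 843 had no listed loop of any other kind. Over all 18722 genes 11.5% were at another loop under 400 kb, so most genes lack one. The 2 counts differ in scope, since the 843 were checked against listed loops of any span. The share of all genes at a listed loop of any span was not computed. The rule also keeps these anchors away from the other loops, so little overlap follows from how the loops were chosen. A single such loop was counted for 756 genes, 2 for 135 and 3 or more for 28. Adjoining pixels count as separate loops in these numbers.

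Among the genes with most loops, PRELP, LPCAT4, NUTM1 and ABT1 had 5 each. LPCAT4, an acyltransferase of phospholipids, and its neighbour NUTM1 shared 5 loops of 100 to 275 kb on chromosome 7, with 65, 81, 95, 107 and 191 contacts. Their partners included ends of EMC4 and EMC7, subunits of a complex that inserts membrane proteins. ABT1, a nuclear protein, had loops with 65, 79, 82, 110 and 145 contacts, and HMGN4, a nucleosome-binding protein beside it, had 4. The loops of ABT1 and HMGN4 lay 427.5 kb or more from a listed domain, and those of LPCAT4 1112.5 kb or more.

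Other genes with 4 loops were CFAP126, CPN1 and HARS. CPN1, the catalytic subunit of carboxypeptidase N, had 4 on chromosome 14, of 150 to 200 kb, with 120, 134, 138 and 168 contacts. They formed a square of adjoining pixels, 2 of them starting from an anchor with an end of ABCC2, an export pump of organic anions. HARS, a histidyl-tRNA synthetase, had 4 on chromosome 2, of 100 to 275 kb, with 92, 107, 112 and 166 contacts, whose partners included SLC4A9, ANKHD1 and SRA1.

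In 230 loops (33.8%) both anchors held a protein-coding gene end, in 263 (38.7%) a single anchor did, and in 187 (27.5%) neither. The loops with genes at both anchors had a median span of 125 kb and 107 contacts in surroundings of 21 genes per Mb. Those with genes at neither had a median span of 150 kb, 90 contacts and 7 genes per Mb. After the loop at the class I genes, the loops between named genes with most contacts were a loop of 200 contacts on chromosome 4 between CFAP126 and FCER1G and a loop of 191 contacts between LPCAT4 and EMC4. The next, with 189 contacts on chromosome 12, joined GRN, which encodes progranulin, with UBTF, a factor of ribosomal RNA transcription. A loop of 171 contacts on chromosome 12 joined CD300A, an inhibitory receptor of leukocytes, with GPR142. On chromosome 6 a loop of 167 contacts joined PAK4, a kinase of the cytoskeleton, with GMFG, an actin regulator of leukocytes. These loops all spanned 100 or 125 kb.

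A minority of loops lay within a single gene. Both anchor midpoints fell into the span of the same protein-coding gene in 39 loops, in 33 genes. ARHGAP26, PDZD2, CELF2, RAP1GAP2, MACROD1 and ARHGAP35 held 2 each. In 15 loops both anchors held an end of the same gene, that is, the loop ran from one end of the gene to the other. STAT4, a transcription factor of interleukin-12 signalling in T and NK cells, was such a gene, with 116 contacts against 55.0 expected over 100 kb. SOS2, an activator of Ras, had 114 contacts against 67.0 expected. EEF2K, the kinase of elongation factor 2, had 143 contacts against 65.5 expected. STAG1, a subunit of cohesin, held a loop of 375 kb with 77 contacts against 41.0 expected. Its FDR in the authors' deposited table was 0.0531.

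Genes of spleen cells were found singly at these loops. The 19 gene lists below are described by counts, beside the 4.91% of all autosomal protein-coding genes, and none was tested. Each list holds only a part of the genes of its kind, and genes outside the lists were not counted. Plasma cell genes were at these loops in 2 of 13. JCHAIN, which links polymeric immunoglobulins, had loops of 100 and 125 kb with 113 and 110 contacts, and SDC1, the surface proteoglycan CD138, had a loop of 125 kb with 99 contacts. Among B cell genes there was 1 of 24: CD40, a receptor for help from T cells, had a loop of 275 kb with 92 contacts against 53.2 expected, to an anchor with ELMO2. Among T and NK cell genes STAT4 was the single one of 38.

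Macrophage and monocyte genes were at these loops in 3 of 31, and 2 of the 3 lay together on chromosome 4. FCER1G, the signalling chain of Fc receptors, had 2 loops of 100 and 125 kb with 200 and 130 contacts, both to anchors with an end of CFAP126. FCGR3A, the Fc receptor CD16, had a loop of 150 kb with 82 contacts to CFAP126 from the other side. CFAP126, a gene of motile cilia, stood between the 2 Fc receptor genes with loops to both. C1QB, a chain of complement C1q, had a loop of 225 kb with 80 contacts on chromosome 6.

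The lists of the other blood lineages were short, so their counts are small whatever the share. Erythroid genes were at these loops in 2 of 17. AHSP, the chaperone of alpha globin, had a loop of 125 kb with 111 contacts, and HEMGN, a nuclear protein of blood cell precursors, a loop of 225 kb with 79. ITGA2B, the platelet integrin alpha IIb, was the single one of 15 megakaryocyte genes and had a loop of 100 kb with 173 contacts against 86.6 expected. None of the 15 listed genes of neutrophils and mast cells was at such a loop, which allows up to 20%. Neither was any of the 19 listed for dendritic cells and antigen presentation (up to 15.8%) or of the 27 listed for stroma and vessels (up to 11.1%). For a count of 0 the limit given is 3 divided by the number of list genes matched. Genes named above at loops, such as SLA-6 and the matrix genes PRELP, FMOD and OPTC, are not on these lists.

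Interferon response genes were at these loops in 3 of 35. DHX58, a cytoplasmic RNA sensor, had 2 loops of 125 and 150 kb with 146 and 139 contacts, whose partners held CNP and ACLY. EIF2AK2, a kinase activated by double-stranded RNA, had a loop of 125 kb with 81 contacts. Of 42 cytokine and receptor genes 3 were present. IL4 and IL13, cytokines of type 2 immunity, shared an anchor of a loop of 150 kb with 77 contacts against 45.7 expected, to an anchor with SHROOM1, and TNFRSF1B, a receptor of TNF, had a loop of 100 kb with 151 contacts. In the authors' deposited table the FDR of the IL4 loop was 0.0531 and that of the TNFRSF1B loop 0.0965. Of the 27 listed NF-kB genes none was present, which allows up to 11.1%. Genes of this pathway outside the list were not counted.

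Among genes of general function, ribosomal proteins were present in 4 of 71, RPL24, RPL27, RPL4 and RPS9, with 136, 130, 122 and 73 contacts. Of 33 housekeeping genes 2 were present, EMC7 with 2 loops and LDHA, a lactate dehydrogenase subunit, with 1. SATB1, a chromatin organiser of T cells, was the single one of 27 genes of chromatin architecture and had a loop of 300 kb with 78 contacts.

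Developmental transcription factors were present in 4 of 70. TBX20, a factor of heart development, had 2 of 275 and 300 kb with 67 contacts each. FOXF1, a factor of lung and gut mesenchyme, had 2 of 325 and 350 kb with 52 and 50. The partner anchors of TBX20 and FOXF1 held no protein-coding gene end. MSX1, a factor of limb and face development, had a loop of 125 kb with 43 contacts. Genes of other organs were also found, with 3 of 25 for liver (APOA2, ASGR1 and CYP7A1), 1 of 23 for skeletal muscle (MYOD1) and 0 of 31 for neurons, which allows up to 9.68%. APOA2 shared the anchor and the loops of FCER1G. The median share over the 19 lists was 5.63%, near the 4.91% of all genes.

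Gene content was compared between the loops outside domains and the other loops under 400 kb, because the annotation of genes is independent of the contacts that chose the loops. Means per chromosome were compared by a two-sided permutation test that flips the sign of the difference on each of 18 autosomes, with p-values adjusted by Benjamini-Hochberg over 6 measures. Chromosomes are not biological replicates. None of the 6 differences passed a threshold of 0.05 after adjustment.

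An anchor held 0.990 ± 0.470 protein-coding gene ends outside domains, against 0.801 ± 0.256 in the other loops (SD, n = 18 chromosomes). The difference of 0.189 ± 0.0834 (SE) was positive on 14 of 18 chromosomes, with a permutation p = 0.0221 before and 0.133 after adjustment. Chromosome 7 had the widest difference, with 2.24 gene ends per anchor outside domains, against 0.979 in the other loops, and without it the mean difference was 0.125 (permutation adjusted p = 0.267). By class, the mean over chromosomes was 0.955 ± 0.536 in the 176 crossing loops, 0.812 ± 0.267 inside domains and 0.763 ± 0.256 at corners. Loops with gene ends at both anchors made up 31.4 ± 15.4% outside domains, against 25.2 ± 9.26% of the other loops (permutation adjusted p = 0.206, higher on 13 of 18), and in crossing loops the share was 34.1 ± 24.9%. Loops with gene ends at neither made up 28.2 ± 10.3%, against 31.2 ± 8.32% (permutation adjusted p = 0.224, lower on 13 of 18).

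The surroundings within 500 kb of the loop's middle had 14.5 ± 6.21 protein-coding genes per Mb outside domains, against 12.9 ± 4.90 for the other loops (permutation adjusted p = 0.197, higher on 10 of 18). Loops within a single gene made up 7.08 ± 6.98% outside domains, against 8.18 ± 5.14% (permutation adjusted p = 0.766). Ends of lncRNA genes numbered 0.225 ± 0.108 per anchor outside domains, against 0.230 ± 0.0537 (permutation adjusted p = 0.882). A p that misses the threshold does not show that the classes are alike, and 2 SE on either side of the difference in gene ends per anchor ran from 0.0219 to 0.355.

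**Figure D5:**
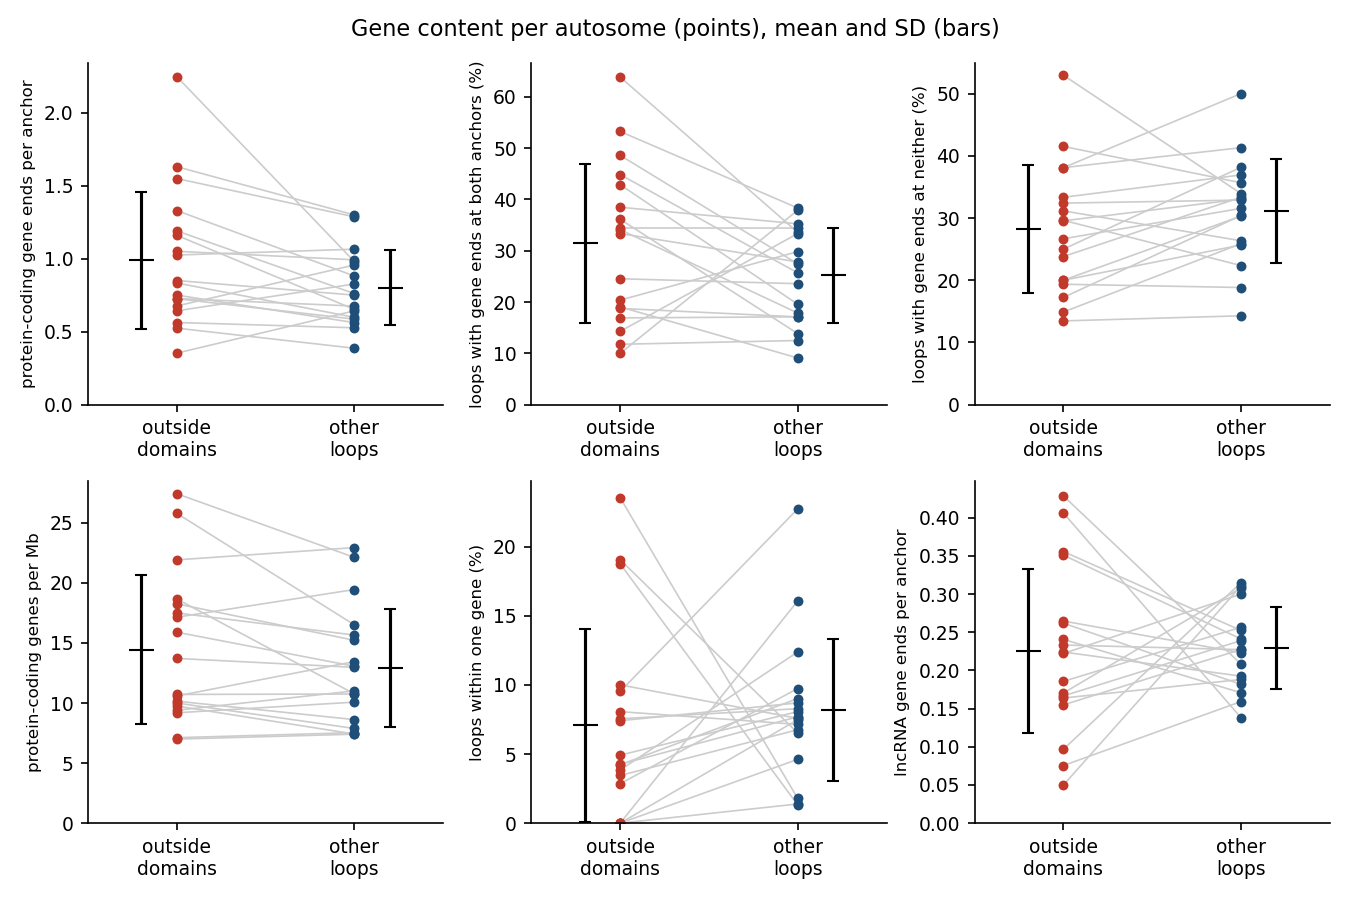
Gene content of loops outside domains (red, left in each panel) and other autosomal loops under 400 kb (blue), with a point per autosome, grey lines joining the same autosome and black bars at the mean with the SD over 18 autosomes. Gene ends per anchor are higher outside domains on 14 of 18 autosomes, and none of the 6 measures passes the adjusted threshold.

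The loops outside domains were also set out by the distance of their nearer anchor from a domain. The 172 loops within 50 kb of a domain had 0.942 gene ends per anchor, the 196 at 50 to 200 kb had 1.18, the 250 at 200 kb to 1 Mb had 1.09 and the 62 at over 1 Mb had 1.08. The last group had the lowest median of observed contacts, 77, against 92, 102 and 93 in the nearer groups, in that order. Within a single gene lay 9.88% of the loops within 50 kb of a domain and 0 of the 62 at over 1 Mb.

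Ends of tRNA genes lay in an anchor of 23 loops outside domains (3.38%), against 16 of the other loops (0.749%), and 11 of the 23 were on chromosome 7. Pseudogene ends were present in 9.41% of the loops, against 5.80% of the others. These counts were looked at after the data were seen and were not tested.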

How the data were processed

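In situ Hi-C of pig spleen (2 replicates, 1 group) was deposited as 2 tables of the whole series. Per the submitters' processing notes, HiC-Pro 3.1.0 was among the tools. The loops carry the header of juicer_tools 1.9.9, and the deposited table gives observed contact counts, not normalized. The deposited table also gives the expected signal from the donut around each pixel, in the unit of the counts, and 4 q-values per loop, per the file headers. The authors' domain table holds starts and ends in multiples of 10 kb. Its caller, the pooling of replicates and the sequencing depth are not stated in any source used here.

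No file names a genome build. Genes came from a RefSeq table of Sscrofa11.1, and gene ends per anchor peaked at no offset (0.905, against 0.828 with anchors moved by 25 kb). This table has no strand, so both ends of a gene were used. No genome sequence was used here, and the motif search of the design was not run. Of 615 list entries, 583 matched an autosomal protein-coding gene.

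Loops were classed with pandas 2.3.3, and domain edges were widened by 20 kb. Means per chromosome were compared with scipy 1.17.1 (permutation test, 100000 sign flips, chromosomes with at least 5 loops of each class), tested on simulated data. The simulation covered gene ends per anchor alone, with classes shuffled within chromosomes, which removes the clustering of the loops. It planted either no difference or one larger than that found, and its outcome is not given here. Named loops were the 8 with the lowest FDR, the 4 with most contacts, the 4 with the highest ratio, the 5 farthest from a domain, the 5 nearest to it (18 tied, so these are given as a group) and the anchors with most loops. Named genes were those at these loops, the 10 with most loops, up to 4 per list, and those at both anchors of the 10 such loops with most contacts; further genes at loops within 1 gene or ending at both ends of it were chosen after their values were seen, as were partners of named genes. A few genes that the rule names are not reported here. Members and lists were chosen with earlier results of these data known. Alternatives are given in the closing section.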

Additional observations from a re-analysis of the deposited data

Results flagged for a closer look

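The sex chromosomes were not part of the comparisons, and they also held loops outside listed domains. On chromosome X, with 15 listed domains, 26 of 28 loops under 400 kb lay outside them, with a median of 54 observed contacts and a ratio to expected of 2.37. On chromosome Y, where 0 domains were listed, all 33 loops under 400 kb counted as outside, with a median of 54 contacts and a ratio of 12.2. Observed contacts are not corrected for the number of copies of these chromosomes.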

How the results depend on the processing

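Each of the 6 gene measures was recomputed under up to 12 alternatives, 70 tests in all, and 0 passed the adjusted permutation threshold. Gene ends per anchor stayed higher outside domains, by 0.119 to 0.338, with permutation adjusted p from 0.059 (all annotated genes) to 0.44. The difference in gene density ran from 1.06 (without chromosome 7) to 3.33 genes per Mb, with permutation adjusted p from 0.059. With each chromosome left out in turn, gene ends per anchor differed by 0.125 (chromosome 7) to 0.217 (chromosome 16), and only lncRNA ends per anchor changed sign (-0.0209 to 0.0102). Among the alternatives tested, the single change of direction was in lncRNA ends per anchor, which differed by 0.00209 among the loops with the lowest FDR (permutation adjusted p = 0.965), against -0.00486 in all. Adjusting for gene density around the loop, leaving out crossing loops from the others, leaving out ratios over 5 and leaving out chromosome 7 were chosen after seeing the data. Restricting to the 50% of loops with the lowest FDR left 304 loops outside domains, with a median of 107 contacts and a ratio of 2.19, in place of 680, 93 and 1.99. This filter keeps loops with clearer enrichment by construction. The number of loops outside domains was 508 at over 50 kb from every domain, 643 with whole anchors outside, 697 without edge tolerance and 555 with 1 pixel per group. Replacing gene ends by gene starts was not run, for want of strand. No replicate could be left out, since no value belongs to a replicate. No paired analysis was possible because the tables hold a single group and no column per replicate. Depth is known only as contacts per loop, and loops with few contacts are the least precise: a count of 10 has an exact Poisson 95% interval of 4.80 to 18.4.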
